A study of Danio rerio with 6 samples.

Results

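Translation factors, aminoacyl-tRNA synthetases and chaperones were compared between sorted kdrl+ cells with and without activity of an NF-kB reporter. The members were the rows of the deposited table whose gene name begins with eif, eef or cct and a digit, with hsp or with dnaj, or has the form of a tRNA synthetase name (such as vars or fars2). This gave 45 of the 2471 genes analysed, namely 15 tRNA synthetase, 14 eif and eef and 16 chaperone genes. The NFKB+ group was kdrl+ cells with green fluorescence and the NFKB- group kdrl+ cells without it, both sorted by flow cytometry from the dissected trunks of zebrafish embryos aged 22 hpf (hours after fertilization). Both groups came from embryos of one genotype, NFKB:d2eGFP x kdrl:mCherry, in which a destabilized green protein reports NF-kB activity and mCherry is driven by a kdrl promoter, kdrl being a VEGF receptor gene of endothelium. There were 3 libraries per group from about 7000 cells each. The labels call them biological replicates but do not say whether each came from its own pool of embryos. NF-kB itself was not perturbed.

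Protein synthesis begins when aminoacyl-tRNA synthetases load each tRNA with its amino acid. Initiation factors (eIFs) then bring the initiator tRNA, the small ribosomal subunit and the mRNA together, and elongation factors (eEFs) deliver the later tRNAs. Chaperones fold the new chains. HSP70 proteins work with DNAJ cochaperones, HSP90 acts on proteins that are partly folded, and the ring-shaped CCT complex encloses actin, tubulin and other clients. The cytosol, the mitochondria and the endoplasmic reticulum (ER) each have their own chaperones, and mitochondria use a separate set of tRNA synthetases.

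The table does not hold every gene of these families. It was filtered by the authors at 2-fold and adjusted p 0.01 on these same libraries, so each member differs between the sorts by selection, and its difference is a description with no test. In the authors' deposited table the member nearest the fold limit was cct6a, at 2.04-fold and a log2 fold change of -1.03, and the member with the highest adjusted p was dnajc5gb, at 9.91e-04. Genes outside the limits were not analysed here. The name rule matches 219 protein-coding genes in the RefSeq annotation of assembly GRCz12tu, of which all 45 members were found by gene ID. Those in the table were 15 of 35 tRNA synthetase genes, 12 of 66 eif, 2 of 19 eef, 2 of 7 cct, 2 of 4 hsp90 and 7 of 53 dnaj genes. The other 5 members are among 35 genes with other hsp names.

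The reads recovered for the whole table came to about 8394000 to 15165000 in NFKB+ and 11130000 to 14021000 in NFKB- libraries, which are sums over selected genes and not library depths. Cell type markers moved with the sorts. Of 28 pan-endothelial markers 19 were in the table and all 19 were higher in NFKB+ cells, with summed levels of 762359 to 789596 normalized reads in NFKB+ and 224901 to 298109 in NFKB- libraries. Of 30 erythroid markers 22 were in the table and 22 were lower, at 752875 to 913032 against 5281071 to 7326431 normalized reads. Of 26 myeloid markers 21 were in the table and 21 were lower, at 16451 to 20641 against 175091 to 216038. None of these 62 genes was at 0 in any library. Globin genes took 6.69% to 7.84% of the table's normalized reads in NFKB+ and 35.9% to 41.7% in NFKB- libraries. Fewer blood cells in a sort and less blood-cell RNA per cell cannot be told apart, and the part of these markers in the differences below was not tested.

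Of the 45 members, 40 were lower and 5 higher in NFKB+ cells, and the groups did not overlap for any of them, as for 99.6% of the table. Over all 2471 genes of the table, 45.4% were lower and 54.3% higher with groups that did not overlap, and all of these counts follow from genes selected on this contrast. The 29 tRNA synthetase, initiation and elongation genes were lower without exception, with log2 differences from -2.15 to -1.05 and a median of -1.29. The 16 chaperone genes were split, 11 lower and 5 higher. The size of these differences depends on how libraries were scaled. Scaling by median ratios moved the median log2 difference of the table by -0.88, and hsp90b1, hspa12a, dnajb5 and dnajb11 then lay at 0.63, 0.38, 0.33 and 0.29, with overlapping groups for dnajb5. Those ratios were taken over the table's genes alone, all selected on this contrast and more of them higher than lower. This scaling treats the middle of these selected genes as unchanged, so its shift is no measure of stability. Past 4-fold lay 3 lower members, beside 14.8% of the table's genes, and 1 higher member, beside 9.43%. Of the 3, dnajc5gb was 3.07-fold lower by the authors' fold change. The median log2 difference of the 40 lower members was -1.29, beside -1.52 for the 1124 lower genes of the table. By the authors' fold changes, 38 of the 45 members were under 3-fold, as was the median gene of the table. The median size of the authors' log2 fold change was 1.28 for the members and 1.46 over the table. Together the members took 1.99% to 2.10% of the table's normalized reads in NFKB+ and 2.89% to 2.99% in NFKB- libraries. Without the globin reads these shares were 2.15% to 2.25% and 4.67% to 4.95%.

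**Figure D1:**
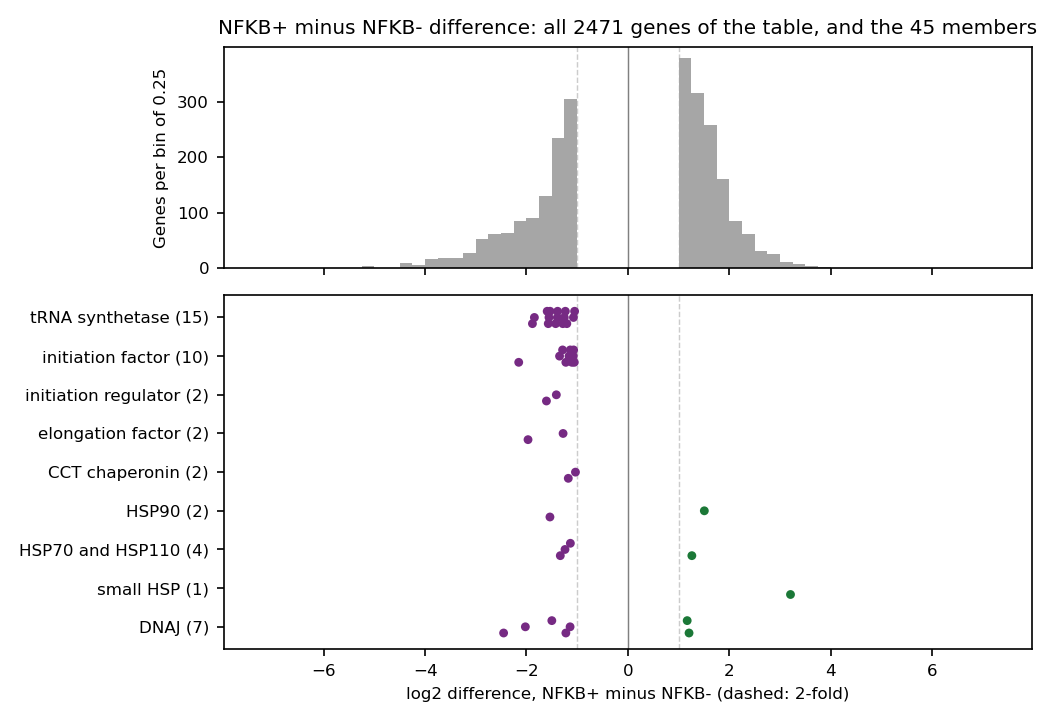
The upper panel is a histogram of the log2 difference (NFKB+ minus NFKB-) of all 2471 genes of the table, in bins of 0.25. The lower panel shows the 45 members by subgroup, 1 point per gene, with 40 points left of 0 and 5 right of it, and the empty band between the dashed lines is the authors' 2-fold limit.

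The 15 tRNA synthetase genes were all lower in NFKB+ cells. The median of their log2 differences was -1.39. The 6 mitochondrial enzymes lay between -1.88 and -1.25, with a median of -1.58, and the other 9 between -1.53 and -1.05, with a median of -1.28. These ranges overlap. The mitochondrial arginine enzyme gene rars2 (NCBI Gene 393589) had log2(normalized reads + 1) values of 5.83, 5.90 and 6.26 in NFKB+ libraries, against 7.84, 7.58 and 8.11 in NFKB- libraries. The highest NFKB+ library was thus 1.32 below the lowest NFKB- library, and the means were 5.999 ± 0.23 and 7.84 ± 0.26 (SD, n = 3 each), a 3.59-fold difference. The asparagine enzyme gene nars2 (Gene 561673) had values of 6.34, 6.04 and 4.43 in NFKB+ libraries, against 7.34, 7.28 and 7.83 in NFKB- libraries. Its NFKB+ library 3 stood apart, with 32 reads, and leaving it out changed the log2 difference of -1.88 to -1.295. Without NFKB+ library 1 the difference was -2.25. Both rars2 and nars2 rested on few reads, with means of 63.5 and 55.1 normalized reads in NFKB+ libraries. The remaining mitochondrial genes sars2, yars2, fars2 and lars2, for serine, tyrosine, phenylalanine and leucine, were 3.01-, 2.97-, 2.94- and 2.38-fold lower.

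Among the other synthetases, the isoleucine enzyme gene iars (Gene 334393) had values of 11.09, 11.01 and 10.81 in NFKB+ libraries, against 12.46, 12.49 and 12.56 in NFKB- libraries. Its NFKB- libraries lay close together, and the means of 10.97 ± 0.15 and 12.50 ± 0.052 (SD, n = 3 each) differed 2.90-fold. The genes dars, mars and hars, for aspartate, methionine and histidine, were 2.68-, 2.62- and 2.61-fold lower. At the small end, farsa, which encodes a subunit of the cytosolic phenylalanine enzyme, and kars, whose lysine enzyme serves cytosol and mitochondria, were 2.10- and 2.07-fold lower. Between them lay vars, yars and wars, for valine, tyrosine and tryptophan, at 2.43-, 2.35- and 2.30-fold. The products of iars, dars, mars and kars belong in animals to a large multi-synthetase complex. Its scaffold gene aimp1 is not matched by the rule and was 2.01-fold lower, at 11.76 ± 0.045 against 12.77 ± 0.15 (SD, n = 3 each). Other genes of the complex (eprs1, aimp2, eef1e1, lars, rars and qars) were not among the genes analysed, so the complex is seen only in part. The 22 erythroid and 21 myeloid markers were lower in the same NFKB+ libraries, and their part in the synthetase differences was not tested.

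**Figure D2:**
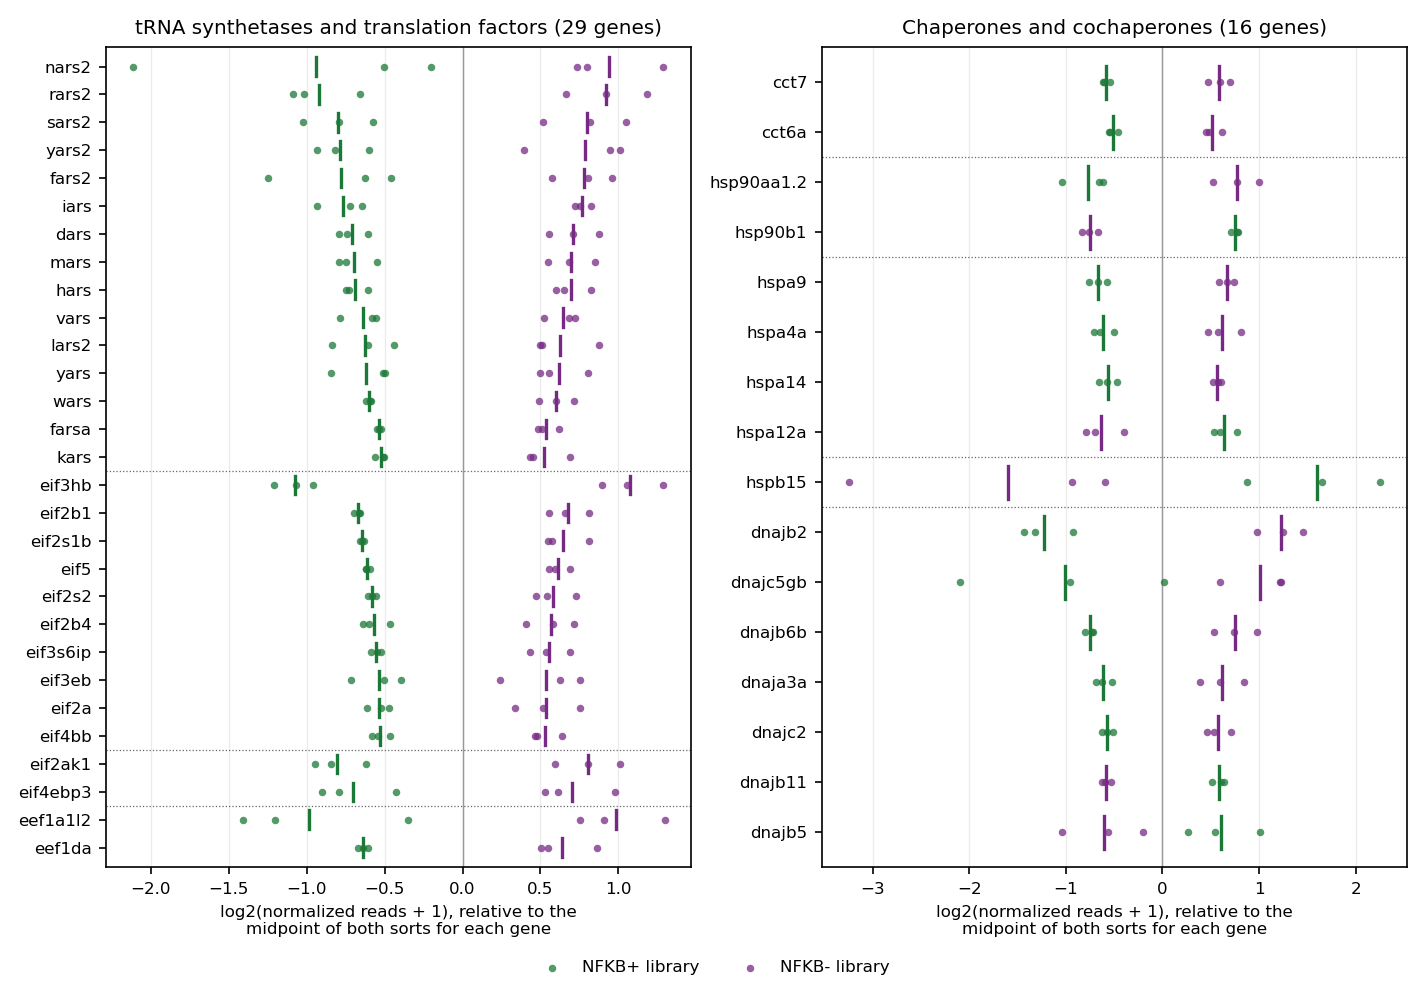
Each row is 1 member and each point 1 library, green for NFKB+ and purple for NFKB-, on the scale of log2(normalized reads + 1) relative to the midpoint of both group means of that gene; bars are means of 3 libraries, dotted lines part the subgroups, and the panels have different scales. The left panel holds 29 tRNA synthetase and translation factor genes, all with NFKB+ to the left of NFKB-, and the right panel 16 chaperone genes, of which hsp90b1, hspa12a, hspb15, dnajb11 and dnajb5 have NFKB+ to the right.

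The 10 initiation factor genes were likewise lower in NFKB+ cells. The median of their log2 differences was -1.15. They include parts of the step at which eIF2 brings the initiator tRNA as a complex with GTP. The eIF2 subunit genes eif2s1b (alpha) and eif2s2 (beta) were 2.44- and 2.24-fold lower. The genes eif2b1 and eif2b4, whose products belong to the exchange factor eIF2B that reloads eIF2 with GTP, were 2.54- and 2.20-fold lower, and eif5, which encodes the factor that triggers GTP hydrolysis on eIF2, was 2.33-fold lower. For eif2b1 (Gene 415150) the values were 11.48, 11.51 and 11.52 in NFKB+ libraries, against 12.73, 12.83 and 12.99 in NFKB- libraries. The NFKB+ libraries lay close together and the NFKB- libraries spread more, with means of 11.50 ± 0.023 and 12.85 ± 0.13 (SD, n = 3 each). Over the 10 genes the median SD was 0.045 in NFKB+ and 0.139 in NFKB- libraries. The globin share, too, was lower in each NFKB+ library than in any NFKB- library, and the part of blood-cell RNA in these differences was not tested.

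The leading initiation factor gene was eif3hb (Gene 567151), which encodes a subunit of eIF3, the scaffold on the small ribosomal subunit. Its values were 8.79, 8.90 and 8.65 in NFKB+ libraries, against 10.75, 10.91 and 11.14 in NFKB- libraries. The gap between the groups was 1.85, and the means of 8.78 ± 0.13 and 10.93 ± 0.20 (SD, n = 3 each) differed 4.45-fold. The other eIF3 genes in the table, eif3s6ip and eif3eb, were 2.15- and 2.11-fold lower. The log2 ratio of eif3hb to eif3eb, which no scaling of libraries can alter, was -0.82 ± 0.26 in NFKB+ and 0.26 ± 0.11 in NFKB- libraries (SD, n = 3 each). The difference of eif3hb was thus larger than that of eif3eb by 1.08 on the log2 scale. The genes eif2a, for a separate initiator tRNA binding factor, and eif4bb, for a cofactor of the helicase eIF4A, were 2.10- and 2.08-fold lower. Zebrafish carry second copies of eif2s1b, eif3eb, eif3hb and eif4bb, and whether their reads were kept apart is not given in the sources.

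The name rule also matched genes that restrain initiation. The kinase gene eif2ak1 (Gene 565338) encodes the heme-regulated inhibitor, which phosphorylates eIF2 alpha and is known in mammals for matching globin synthesis to heme in red cell precursors. Its values were 10.24, 10.58 and 10.35 in NFKB+ libraries, against 11.79, 11.9996 and 12.20 in NFKB- libraries. All NFKB+ libraries were below all NFKB- libraries, with means of 10.39 ± 0.17 and 11.996 ± 0.21 (SD, n = 3 each), a 3.04-fold difference. The gene eif4ebp3 (Gene 492482), for a protein that binds the cap-binding factor eIF4E and blocks it, had values of 8.67, 8.78 and 9.14 in NFKB+ libraries, against 10.10, 10.18 and 10.55 in NFKB- libraries, and was 2.66-fold lower. Both inhibitor genes that the rule matched were thus lower, as the factor genes were. Outside the rule, of the genes for inhibitors of eIF4A, pdcd4a was lower and pdcd4b higher.

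Of the elongation factor genes, eef1da and eef1a1l2 were in the table and both were lower in NFKB+ cells. The gene eef1da (Gene 565501) encodes a subunit of the exchange factor that recharges eEF1A with GTP. It had values of 12.63, 12.60 and 12.56 in NFKB+ libraries, against 13.74, 13.79 and 14.10 in NFKB- libraries. The means of 12.60 ± 0.033 and 13.87 ± 0.19 (SD, n = 3 each) differed 2.42-fold. The gene eef1a1l2 (Gene 664756), an eEF1A relative, had values of 5.73, 5.93 and 6.78 in NFKB+ libraries, against 7.88, 8.04 and 8.43 in NFKB- libraries. It was 3.92-fold lower but rested on few reads, with a mean of 73.6 normalized reads in NFKB+ and 279.8 in NFKB- libraries, and its reads may be shared with other eEF1A copies.

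The CCT genes in the table were lower in NFKB+ cells. The gene cct7 (Gene 192324), for the eta subunit, had values of 13.97, 14.03 and 13.98 in NFKB+ libraries, against 15.05, 15.17 and 15.28 in NFKB- libraries, and was 2.26-fold lower. The gene cct6a (Gene 116994), for a zeta subunit, had values of 13.61, 13.51 and 13.53 in NFKB+ libraries, against 14.51, 14.55 and 14.69 in NFKB- libraries, and was 2.05-fold lower. Neither gene's groups overlapped. Of the list's genes for prefoldin, the complex that hands chains to CCT, and for the alpha subunit of CCT (tcp1), none was among the genes analysed.

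The HSP90 genes lay on opposite sides. The gene hsp90b1 (Gene 386590) encodes GRP94, the HSP90 of the ER, which folds secreted and membrane proteins such as integrins. Its values were 13.06, 13.06 and 12.99 in NFKB+ libraries, against 11.62, 11.45 and 11.52 in NFKB- libraries. All NFKB+ libraries were above all NFKB- libraries, with means of 13.04 ± 0.039 and 11.53 ± 0.087 (SD, n = 3 each), a 2.85-fold excess. The gene hsp90aa1.2 (Gene 565155), which encodes a cytosolic HSP90 alpha, had values of 10.54, 10.92 and 10.96 in NFKB+ libraries, against 12.11, 12.35 and 12.58 in NFKB- libraries. It was 2.90-fold lower, with means of 10.81 ± 0.23 and 12.35 ± 0.24 (SD, n = 3 each). It has a tandem duplicate, with which reads may be shared. The log2 ratio of hsp90b1 to hsp90aa1.2 within a library was 2.52, 2.14 and 2.03 in NFKB+ libraries, against -0.49, -0.91 and -1.06 in NFKB- libraries. The ratio was therefore higher by 3.05 in NFKB+ cells, and it does not depend on how libraries were scaled.

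Of the HSP70 and HSP110 genes, 3 were lower and 1 higher in NFKB+ cells. The gene hspa9 (Gene 373085) encodes mortalin, the HSP70 of mitochondria. It had values of 12.70, 12.61 and 12.80 in NFKB+ libraries, against 13.96, 14.03 and 14.11 in NFKB- libraries, and was 2.52-fold lower. The gene hspa4a (Gene 335865), for an HSP110-type exchange factor of HSP70, had values of 11.60, 11.82 and 11.67 in NFKB+ libraries, against 12.79, 12.89 and 13.13 in NFKB- libraries, and was 2.36-fold lower. The groups were apart in both genes. The gene hspa14 encodes an HSP70 that in mammals sits on the ribosome with the product of dnajc2, and these genes were 2.19- and 2.20-fold lower. The gene hspa12a (Gene 751725), for a distant HSP70 relative, was on the other side, with values of 11.59, 11.76 and 11.53 in NFKB+ libraries, against 10.59, 10.29 and 10.20 in NFKB- libraries, a 2.40-fold excess. One gene of this kind escaped the rule, since its deposited name is si:ch211-199o1.2 (Gene 798846) and RefSeq now calls it hspa1b. It is named here after its values were seen. It had values of 10.01, 10.02 and 9.94 in NFKB+ libraries, against 7.49, 7.58 and 7.45 in NFKB- libraries, and was 5.60-fold higher.

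The small heat shock protein gene hspb15 (Gene 555589) had the largest log2 difference of the higher members, 3.19, and the fewest reads. It had 32, 48 and 137 reads in NFKB+ libraries, against 10, 1 and 8 reads in NFKB- libraries. All NFKB+ libraries were above all NFKB- libraries. The means were 5.81 ± 0.69 and 2.62 ± 1.44 on the log2 scale (SD, n = 3 each). The 9.13-fold excess was 12.9-fold without NFKB- library 4 and 5.15-fold without NFKB- library 5, which held 1 read. The authors' fold change with all libraries was also 5.15. Adding 10 rather than 1 to the normalized reads before the log gave a log2 difference of 2.01. The size of the difference is therefore uncertain for this gene, and counting error was not estimated apart from variation between libraries.

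Of the 7 DNAJ genes, 5 were lower and 2 higher in NFKB+ cells. The gene dnajb2 (Gene 561686), whose product in mammals guides misfolded proteins to the proteasome, had the largest log2 difference of the lower members, -2.45. Its values were 8.98, 9.37 and 8.87 in NFKB+ libraries, against 11.28, 11.54 and 11.75 in NFKB- libraries. The gap between the groups was 1.91, and the means of 9.07 ± 0.26 and 11.52 ± 0.24 (SD, n = 3 each) differed 5.47-fold. The gene dnajc5gb (Gene 393371), of the cysteine string protein family, had 63, 12 and 51 reads in NFKB+ libraries, against 134, 102 and 140 reads in NFKB- libraries. On the log2 scale it differed by -2.02. The difference was -2.54 without NFKB+ library 1 and -1.48 without NFKB+ library 2, which had the fewest reads. The genes dnajb6b, whose product keeps aggregation-prone proteins soluble, and dnaja3a, whose product is the mitochondrial partner of mortalin, were 2.83- and 2.33-fold lower.

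The higher DNAJ genes were dnajb11 and dnajb5. The gene dnajb11 (Gene 386709) encodes ERdj3, a cochaperone of the ER. It had values of 13.99, 14.09 and 14.13 in NFKB+ libraries, against 12.95, 12.89 and 12.86 in NFKB- libraries. The libraries of a sort agreed closely, with means of 14.07 ± 0.068 and 12.90 ± 0.046 (SD, n = 3 each), a 2.25-fold excess. The gene dnajb5 (Gene 569466), for a cytosolic cochaperone, had values of 8.03, 8.49 and 7.75 in NFKB+ libraries, against 6.91, 7.28 and 6.44 in NFKB- libraries. It was 2.31-fold higher, and its groups were only 0.47 apart. The globin share was 6.69% to 7.84% in NFKB+ and 35.9% to 41.7% in NFKB- libraries, and the part of blood-cell RNA in the chaperone differences was not tested.

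Other folding genes were taken from a list of 58 co-chaperones and folding factors, of which 9 were in the table, 8 higher and 1 lower, with a median log2 difference of 1.17. Over the table the median was 1.08 and 54.5% of genes were higher. The collagen chaperone genes serpinh1b and serpinh1a, whose product HSP47 works in the ER, were 4.90- and 2.03-fold higher. The calreticulin genes calr and calr3a were 2.83- and 2.17-fold higher, pdia3, for a protein disulfide isomerase, was 2.25-fold higher and ppib, for the ER prolyl isomerase cyclophilin B, was 2.07-fold higher. The genes bag3 and bag2, for cytosolic regulators of HSP70, were 3.00- and 2.41-fold higher. The lower gene was grpel1, for the exchange factor of mitochondrial HSP70, at 7.77 ± 0.21 against 9.14 ± 0.24 (SD, n = 3 each), 2.58-fold.

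Set out by compartment, a grouping made after the values were seen, the analysed members and listed genes for folding in the ER numbered 8. Each of them was higher in NFKB+ cells, at log2 differences from 1.02 to 2.29, beside 54.5% of the table's genes higher. The listed ER genes hyou1, canx, calr3b, pdia4, pdia6, p4hb and sil1 were not among the genes analysed, nor was hspa5. The 3 mitochondrial genes, hspa9, dnaja3a and grpel1, were lower, from -1.37 to -1.22. Of the 11 cytosolic genes, 3 were higher and 8 lower, from -2.45 to 1.59. The genes hspa12a, hspb15 and dnajc5gb were not placed. The HSP70 gene hspa1b (si:ch211-199o1.2), which the rule and the lists do not hold, was not counted either. In mammals its namesake is cytosolic, and its log2 difference was 2.49, unlike most of the cytosolic genes counted. The size of the ER differences depends on scaling. Scaling by median ratios moved the median of the table by -0.88 and put hsp90b1 and dnajb11 at 0.63 and 0.29. The ratios were taken over the table's genes alone, all of them selected on this contrast. The pan-endothelial markers were higher in the same libraries, and the part of cell composition in the split by compartment was not tested.

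**Figure D3:**
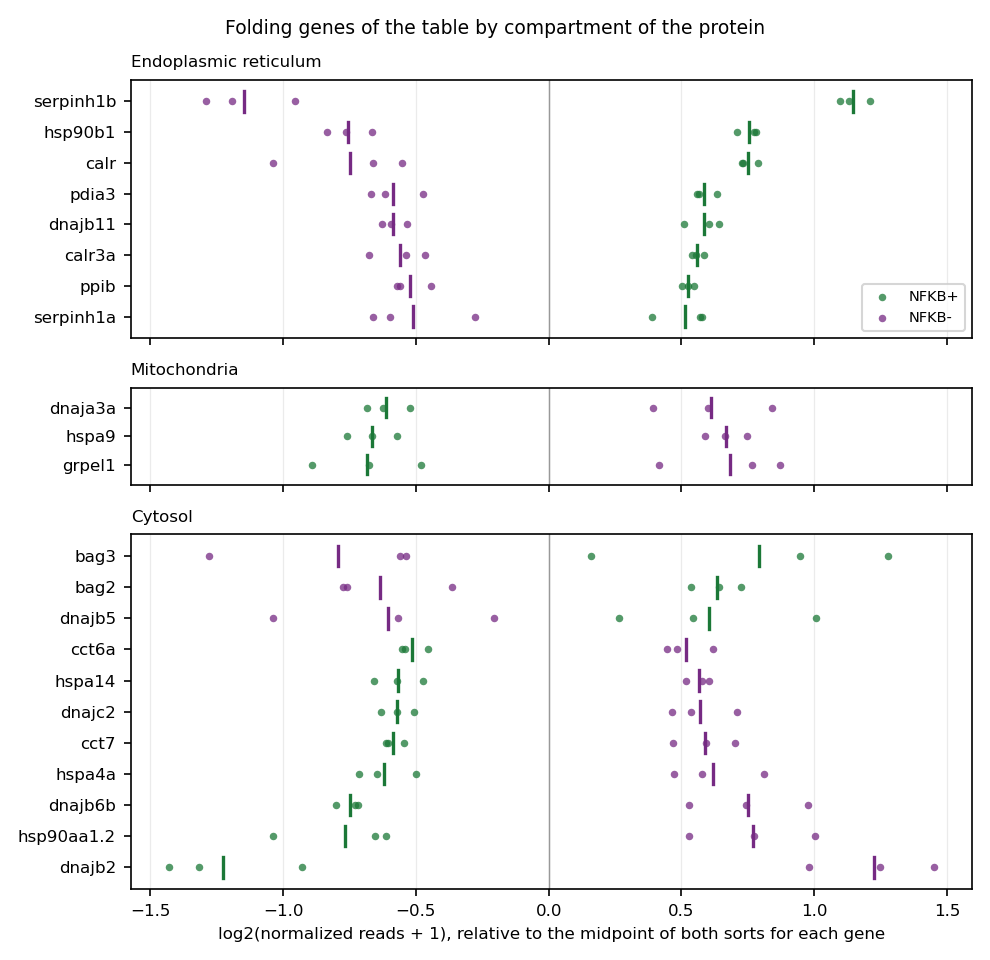
Each row is 1 folding gene of the table and each point 1 library, green for NFKB+ and purple for NFKB-, as log2(normalized reads + 1) relative to the midpoint of both group means; bars are means of 3 libraries. The 8 ER genes have NFKB+ on the right, the 3 mitochondrial genes have NFKB+ on the left, and the 11 cytosolic genes include 3 with NFKB+ on the right.

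Other genes of translation mostly lay with the factors, in a table where 45.5% of genes were lower. Of a list of 24 genes for tRNA maturation and the synthetase complex, 8 were in the table and all 8 lay lower in NFKB+ cells, at a median of -1.31. The genes ftsj1, mettl1 and trmt5, for tRNA methyltransferases, were 2.82-, 2.70- and 2.61-fold lower. The gene wdr4, for the partner of the mettl1 product, was 2.07-fold lower. Of a list of 36 genes for release, recycling, poly(A) binding and control of translation, 9 were in the table, 8 lower and 1 higher, with a median of -1.27. The poly(A)-binding protein gene pabpc1b was 3.59-fold lower. The genes dhps and dohh, whose enzymes act in turn to make the hypusine residue of eIF5A, were 2.74- and 2.28-fold lower. The gene abce1, for the factor that splits ribosomes after termination, was 2.42-fold lower. The pair pdcd4a and pdcd4b, for inhibitors of eIF4A, was divided, with log2 differences of -1.33 and 1.06.

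**Figure D4:**
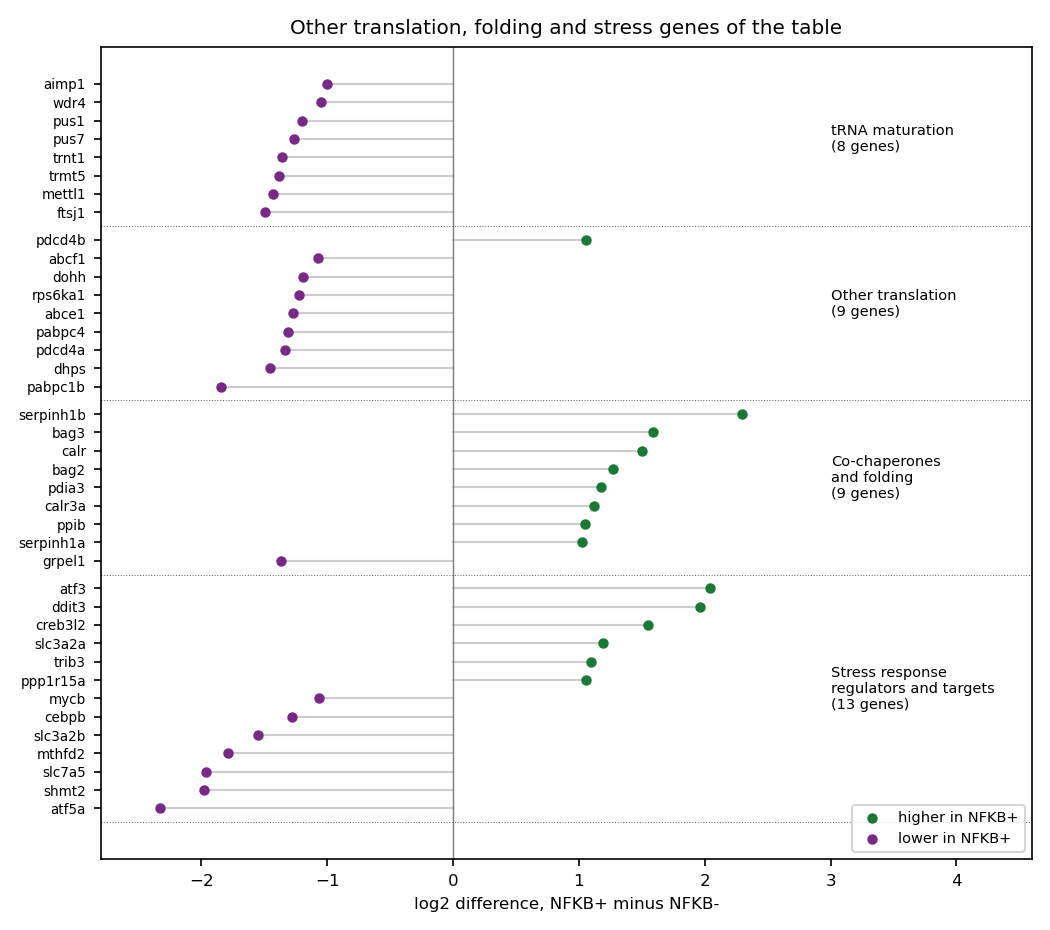
Each row is 1 gene of the 4 lists outside the name rule and each point its log2 difference (NFKB+ minus NFKB-), green where higher in NFKB+ and purple where lower. The tRNA maturation genes lie left of 0, the folding genes lie right of 0 except grpel1, and the stress response genes lie on both sides.

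Genes of the heat shock, amino acid and unfolded protein responses were divided. Of 43 listed, 13 were in the table, 6 higher and 7 lower in NFKB+ cells. The stress factor genes atf3 and ddit3 were 4.12- and 3.89-fold higher, and creb3l2, for an ER-anchored transcription factor, was 2.93-fold higher. For atf3 the SD was 0.58 in NFKB+ and 0.69 in NFKB- libraries, among the widest in the list. The transcription factor gene atf5a was 5.03-fold lower, shmt2, of mitochondrial one-carbon metabolism, was 3.94-fold lower and slc7a5, for an amino acid transporter, was 3.90-fold lower. The pair slc3a2a and slc3a2b, for the heavy chain that joins such transporters, was divided, with log2 differences of 1.19 and -1.55. No gene for a heat shock factor (hsf1, hsf2, hsf4, hsf5) was among the genes analysed. The summed level of the 13 genes overlapped between the sorts, at 42946 to 57659 normalized reads in NFKB+ and 46200 to 57020 in NFKB- libraries. This sum adds higher genes to lower ones. Taken singly, all 13 genes had groups that did not overlap, as had 99.6% of the table.

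Within the NFKB- sort, the lower members varied together in the deposited scaling. Library 6 was the highest of the 3 NFKB- libraries for 39 of the 40 lower members (97.5%), and for 70.4% of the 1124 lower genes of the table. Library 4 was the lowest for 31 of the 40 (77.5%), and for 61.9% of the lower genes of the table. The globin share was also highest in library 6, at 41.7%, and lowest in library 4, at 35.9%. The order of the NFKB- libraries depends on scaling. As a share of the table's normalized reads, all 45 members together took 2.99%, 2.90% and 2.89% in libraries 4, 5 and 6. Without the globin reads they took 4.67%, 4.81% and 4.95%. Within the NFKB+ sort, libraries 1, 2 and 3 were the highest for 14, 16 and 10 of the 40 genes, with no library ahead of the others as in NFKB-. Over all 45 members the median SD was 0.096 in NFKB+ and 0.164 in NFKB- libraries, and over the table it was 0.139 and 0.200.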

How the data were processed

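The authors deposited 1 table of log2 expression values for 3 NFKB+ and 3 NFKB- libraries. Per the submitters' processing notes, cutadapt, STAR, HTSeq and DESeq2 and the build danRer10 were used, with no versions or roles; no source used here gives the annotation. In each library, 100% of the values under 1000 reads were whole multiples of 1 step within 0.1 read, so the deposited log2 values are log2(x + 1), where x is reads over a library's size factor. The authors' p-values, adjusted p-values, log2 fold changes and signed fold scores stand in the deposited table, which holds genes past 2-fold and adjusted p 0.01. The genes mafba and efna2a have 2 rows each with conflicting values, and these 4 of 2475 rows were left out.

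The columns give the sort and a running number, by which libraries are named here. For each gene, the mean, SD and NFKB+ minus NFKB- difference of log2(normalized reads + 1) were computed in Python 3.11.15 with pandas 2.3.3 and numpy 2.4.6, with a pseudocount of 1 and no low-value filter. Folds are 2 to the power of the difference. No p-value is given, because the same contrast in the same libraries selected the genes. Recovery of reads and differences was tested on simulated data. The members, the lists and the rule for named genes (leading members of each subgroup in each direction, and the minority side) were chosen with earlier results of these data known. Alternatives were other scalings, a pseudocount of 10, a ratio of mean reads, a filter, members without the initiation regulators, the authors' fold changes and leaving out each library.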

Additional observations from a re-analysis of the deposited data

How the results depend on the processing

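The sign of the log2 difference of all 45 members was kept under each alternative run, but a selection at 2-fold on these libraries largely fixes this, and it says nothing of stability. Scaling shifted the median log2 difference of the table by 0.49 (same total of the table reads), -0.11 (same total without globins) or -0.88 (median ratios). Each of these scalings was computed from the table's genes alone, which were selected on this contrast. The median of the members, -1.25, was -0.76 with the same total and -2.13 with median ratios. The numbers past 4-fold, 1 higher and 3 lower, were 2 and 0 with the same total, and 33 members were lower past 4-fold with median ratios. With a ratio of mean reads or a pseudocount of 10, 2 members were lower past 4-fold, as dnajc5gb then lay at -1.81 and -1.72. Under median ratios the groups of 44 members, all but dnajb5, did not overlap, and the 5 higher members lay between 0.29 (dnajb11) and 2.42 (hspb15). With genes under a mean of 50 normalized reads left out, 0 members were higher past 4-fold, since hspb15 was removed. Without 1 library at a time the median of the members ranged from -1.32 to -1.17 and the number lower past 4-fold from 2 to 4. Of 540 values of single members under alternatives, 435 moved by less than 1 SD and 105 by 1 SD or more. Of the 105, 104 were under the scalings and 1, hspb15, with a pseudocount of 10. In each run without 1 library, all 45 members moved by less than 1 SD. Leaving out 1 of 3 libraries cannot move a group mean by 1 SD of that group, so the count of 435 does not measure stability. No paired analysis was possible because each column is numbered across both sorts, not by the labels' replicates. The differences of genes with few reads, such as hspb15 and dnajc5gb, are uncertain in size. Counting error was not estimated apart from variation between libraries. Promoter motifs and protein identities were planned but not run.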
